A study of Homo sapiens with 8 samples.

Results

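The desmosome genes examined here were 10 symbols chosen by name, with earlier results of these data known. The set held the desmosomal cadherins DSG2 and DSC2, the armadillo proteins JUP, PKP1, PKP2, PKP3 and PKP4, and the plakins DSP, PPL and EVPL. The symbols were looked up in 2 deposited tables of 48405 gene rows each, 1 table per cell line. For 9 of the 10 symbols the tables held exactly 1 row. No row was named PKP4, so that gene was not analysed here. Polyadenylated RNA came from HCC4006 and HCC827, human lung adenocarcinoma cell lines with activating mutations of the EGFR receptor. The controls of each line carried DMSO, the solvent, and the resistant cultures were kept in 3 µM gefitinib, an EGFR kinase inhibitor. All cultures grew in RPMI-1640 with fetal bovine serum, and each of the 4 groups had 2 libraries. Nothing in the labels ties paired libraries to independently grown cultures. The p-values therefore measure only the spread between these libraries, which may be technical. Effects of resistance and of gefitinib itself cannot be told apart in this design.

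Desmosomes are spot-like junctions that rivet neighbouring epithelial cells together. Desmogleins and desmocollins, which are transmembrane cadherins, bind across the gap between cells. Inside the cell, plakoglobin (JUP) and the plakophilins bind the cadherin tails, and desmoplakin (DSP) ties this plaque to the keratin filaments. PPL and EVPL encode periplakin and envoplakin, plakins best known from the cornified envelope of skin. Loss of desmosomes is a textbook feature of cells that leave the epithelial state.

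Levels are given as FPKM, a read count corrected for transcript length and library size, which allows genes to be compared within a library. Whether both tables share 1 normalization is not known, so levels of the 2 lines are set side by side without a test. In the DMSO cultures of both lines DSG2 and JUP were the most abundant members, between 627 and 834 FPKM, and PKP3 came next. In DMSO the lowest of the 7 members above 0 in all libraries was DSC2 in HCC4006 and PKP2 in HCC827. In resistant HCC4006 the order changed: PPL stood above PKP3, the reverse of DMSO, and DSP, above PKP2 and DSC2 in DMSO, became the lowest of the 7. PKP1, a plakophilin best known from stratified epithelia, was listed at 0 in 7 libraries and at 0.748 FPKM in 1 HCC4006 DMSO library. EVPL was listed at 0 in all 8 libraries. So were the 13 other rows on its merged locus (chromosome 17, 73780680 to 74069495), so this 0 can be a failed estimate of the whole locus. These 2 members were not tested, and the other 7 lay above 0 in every library.

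**Figure D1:**
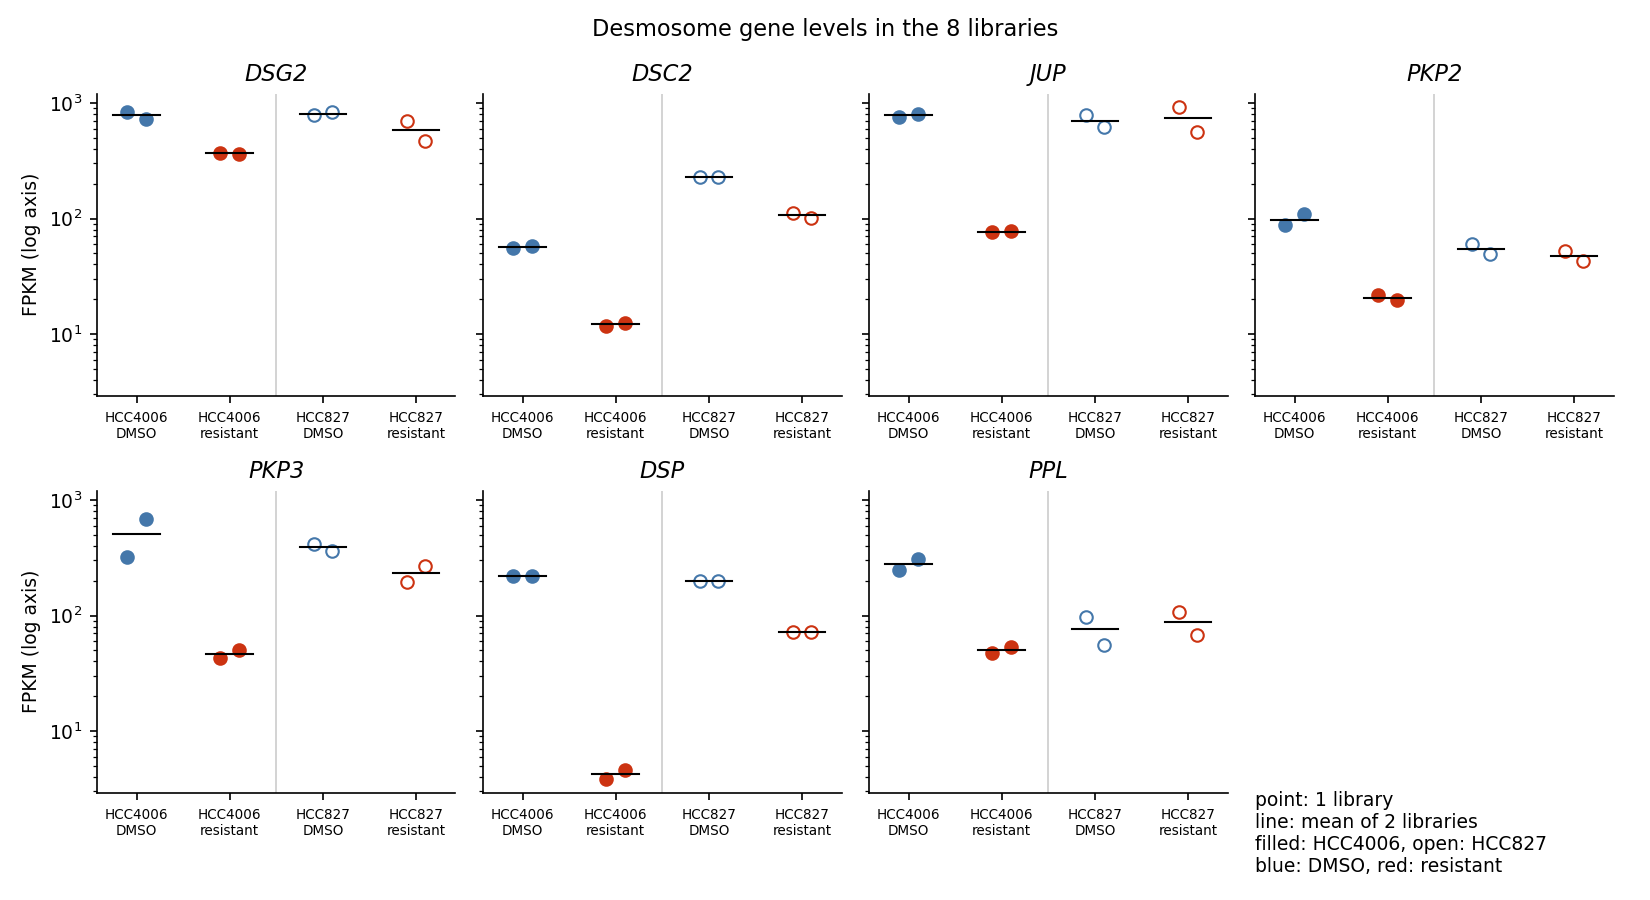
FPKM on a log axis of the 7 desmosome genes above 0 in all libraries, with 1 point per library and a line at the mean of the 2 libraries of a group. In HCC4006 the resistant libraries lie below the DMSO libraries in each panel, by most for DSP (3.81 and 4.62 against 220.1 and 219 FPKM), while JUP, PKP2 and PPL overlap between the groups of HCC827.

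In resistant HCC4006, all 7 tested desmosome genes had a lower mean than in DMSO, and 6 of the 7 were called lower. DSP fell the most, to 1.92% of its DMSO mean, JUP and PKP3 fell about as far as each other, to 9.86% and 9.26%, and PPL, DSC2 and PKP2 fell to 18.1%, 21.5% and 21.1%. DSG2 stood at 46.8% of its DMSO mean and did not pass the test. A gene was called at a Benjamini-Hochberg adjusted p below 0.05 in limma over all 19881 tested rows, of which 2.98% were called lower and 6.37% higher. No desmosome gene was called higher. All 7 had both resistant libraries below both DMSO libraries, as had 26.5% of all tested rows. Their median log2 difference (resistant minus DMSO, of FPKM + 0.5) was −2.45, against −0.01 over all tested rows. In bulk RNA, fewer cells with a transcript and less transcript per cell cannot be told apart.

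Among the cadherins, which form the adhesive contact, DSG2 (hg19 chromosome 18, 29078026 to 29136874) measured 834 and 734 FPKM in the HCC4006 DMSO libraries and 369 and 366 in resistant cells. The groups did not overlap, and the log2 difference was −1.09 (SE 0.19, 95% interval −1.62 to −0.56, adjusted p = 0.0538). DSG2 was called in 2 of 9 alternative settings of the limma fit. These were the fit of all 8 libraries together (adjusted p = 0.0432) and the fit without a filter on low values (0.0482). Across the 9 settings its adjusted p ran up to 0.176, and over rows above 0 in every library it was 0.126. Without DMSO library B its log2 difference was −1.18. DSC2, which encodes the partner desmocollin (chromosome 18, 28645939 to 28682388), measured 55.5 and 57.7 FPKM in DMSO and 11.8 and 12.5 in resistant cells. Its resistant libraries lay well below the DMSO pair, with a log2 difference of −2.17 (SE 0.21, adjusted p = 0.0116). Within a library, DSG2 exceeded DSC2 by more in resistant cells, 31.3-fold and 29.2-fold, than in DMSO, where the lower of the ratios was 12.7.

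Among the armadillo genes, JUP (chromosome 17, 39910855 to 39943183) measured 764 and 799.8 FPKM in DMSO and 76.3 and 77.9 in resistant cells. Libraries of a group were close together and the groups lay far apart, with a log2 difference of −3.33 (SE 0.18, adjusted p = 0.002). PKP2, the most widely expressed plakophilin (chromosome 12, 32943679 to 33049780), measured 87.1 and 109 FPKM in DMSO and 21.6 and 19.7 in resistant cells. Its log2 difference was −2.21 (SE 0.23, adjusted p = 0.0148). PKP3 (chromosome 11, 392613 to 404908), a plakophilin of simple and stratified epithelia, measured 322 and 687 FPKM in DMSO and 42.7 and 50.7 in resistant cells. The DMSO libraries of PKP3 differed more than those of any other tested member, and its log2 difference of −3.32 had the largest error (SE 0.45, adjusted p = 0.0291). PKP3 made up 78.7% and 86.2% of the summed FPKM of PKP1, PKP2 and PKP3 in DMSO and 66.4% and 72.0% in resistant cells.

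Among the plakins, DSP (chromosome 6, 7541807 to 7586950) measured 220.1 and 219 FPKM in DMSO and 3.81 and 4.62 in resistant cells. These levels stood above 75.9% to 77.2% of all rows above 0 in the DMSO libraries and above 15.3% to 16.9% in resistant cells. The log2 difference was −5.55 (SE 0.22, adjusted p = 0.000882), the largest of the 7. PPL (chromosome 16, 4932507 to 4987136) measured 248 and 311 FPKM in DMSO and 47.2 and 53.7 in resistant cells, with a log2 difference of −2.45 (SE 0.23, adjusted p = 0.0104). Both plakins were thus near each other in DMSO, with PPL at 1.13 and 1.42 times DSP, and far apart in resistant cells, with PPL at 12.4 and 11.6 times DSP. JUP was at 3.47 and 3.66 times DSP in DMSO and at 20.0 and 16.9 times DSP in resistant cells.

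The calls for DSP, JUP and PPL also stood in a fit over the rows above 0 in every library, with adjusted p of 0.0241, 0.0241 and 0.0498, where 0.431% of 16484 rows were called lower. PKP2 (0.0729), PKP3 (0.0661) and DSC2 (0.075) were not called there. Without resistant library A or B, the spread comes from the DMSO group alone. The calls for JUP, PKP2, PKP3, DSC2 and PPL did not hold in those fits, and the log2 difference of DSP was −5.42 and −5.67.

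**Figure D2:**
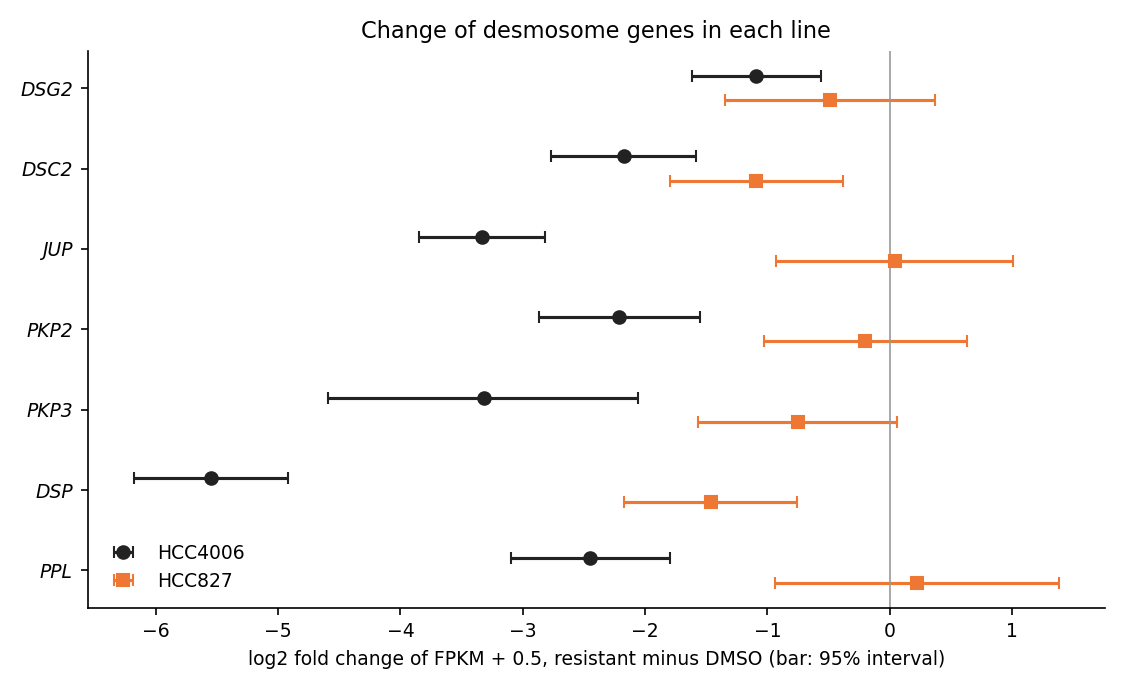
Log2 fold change of FPKM + 0.5, resistant minus DMSO, for the 7 tested desmosome genes in HCC4006 (circles) and HCC827 (squares), with 95% intervals from limma. In HCC4006 the values run from −5.55 for DSP to −1.09 for DSG2, and in HCC827 from −1.46 for DSP to 0.22 for PPL.

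Upstream sequence was compared for the members that RefSeq's promoter table (GRCh38.p14) covers: DSP, JUP, DSC2, DSG2, PKP1 and PKP4, with 9 start sites in all. The motif searched on both strands was CAGGTG, the E-box bound by ZEB1, ZEB2 and SNAI repressors of epithelial genes, in the 250 bases before each start. It occurred before a start site of DSP, JUP, DSC2 and DSG2, in 4 of the 9 windows, and in 17.5% of 35116 windows of that length in the table. The windows below show the motif in capitals, read 5′ to 3′ on the gene's strand. Each ends before the first base that GENCODE v29 annotates as an exon.
DSP, chr6:7541421-7541574, plus strand: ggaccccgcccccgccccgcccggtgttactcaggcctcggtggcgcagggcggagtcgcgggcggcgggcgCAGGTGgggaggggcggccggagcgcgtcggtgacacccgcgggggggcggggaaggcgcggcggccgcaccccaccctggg
JUP, second start site, chr17:41785977-41786226, minus strand: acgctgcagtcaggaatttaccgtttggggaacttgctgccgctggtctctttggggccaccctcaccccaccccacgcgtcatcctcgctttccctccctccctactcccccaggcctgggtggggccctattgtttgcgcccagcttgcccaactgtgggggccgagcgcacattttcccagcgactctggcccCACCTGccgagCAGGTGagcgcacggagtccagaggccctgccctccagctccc
DSC2, first start site, chr18:31102523-31102671, minus strand: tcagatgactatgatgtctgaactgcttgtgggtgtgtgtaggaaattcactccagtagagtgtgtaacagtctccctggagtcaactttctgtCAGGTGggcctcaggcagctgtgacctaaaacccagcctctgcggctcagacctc
DSG2, chr18:31497927-31498042, plus strand: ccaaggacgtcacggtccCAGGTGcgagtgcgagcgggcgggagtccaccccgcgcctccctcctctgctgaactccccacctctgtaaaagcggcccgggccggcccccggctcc

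In DSP the motif began 178 and 85 bases before the start site, and in DSG2 232 and 116 bases before it. The nearer match of each falls beyond the stretch shown. JUP carried its 2 matches on opposite strands, 54 and 43 bases before its second start site, and none before the first. DSC2 had 1 match, 156 bases before its first start site. Windows with at least 2 matches made up 2.53% of all windows. The motif AACCGGTT, which Grainyhead-like factors bind, was in none of the 9 windows and in 0.117% of all windows. A match describes letters only.

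In HCC827, none of the 7 tested desmosome genes was called in either direction by limma, where 1.67% of 19324 rows were called lower and 5.13% higher. DSP and DSC2 passed an unadjusted p below 0.05. The share of all tested rows that pass this looser rule was not counted, so no conclusion is drawn from it. The genes nearest to a call were DSP, at 36.1% of its DMSO mean, and DSC2, at 46.8%. DSP, PKP3, DSC2 and DSG2 had both resistant libraries below both DMSO libraries, which 24.7% of tested rows had. JUP, PKP2 and PPL overlapped between the groups. The median log2 difference of the 7 was −0.49, against −0.04 over all tested rows.

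DSP measured 200.5 and 198 FPKM in the HCC827 DMSO libraries and 71.8 and 71.9 in resistant cells. Libraries of a group nearly coincided, and the log2 difference was −1.46 (SE 0.27, 95% interval −2.17 to −0.76, adjusted p = 0.0524). DSP was called when all 8 libraries were fitted together (adjusted p = 0.00672) and under 3 other settings, but not over rows above 0 alone (0.181), where 0.0565% of 15917 rows were called lower. DSC2 measured 227 and 230.4 FPKM in DMSO and 112 and 101 in resistant cells, a log2 difference of −1.09 (SE 0.27, adjusted p = 0.12). In the fit over all 8 libraries DSC2 was called too (0.0223).

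DSG2 measured 788 and 831 FPKM in HCC827 DMSO and 704 and 470.1 in resistant cells, where library B stood lower than A. Its log2 difference was −0.49 (95% interval −1.35 to 0.37, adjusted p = 0.507). PKP3 measured 419 and 361 FPKM in DMSO and 196 and 270.1 in resistant cells, with a log2 difference of −0.75 (−1.57 to 0.06, adjusted p = 0.307). Neither passed the test, though their groups did not overlap.

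JUP measured 784 and 627 FPKM in HCC827 DMSO and 921 and 563 in resistant cells, a log2 difference of 0.04 (95% interval −0.93 to 1.01, adjusted p = 0.972). PKP2 measured 60.0 and 49.8 FPKM against 52.7 and 42.6, a log2 difference of −0.20 (−1.03 to 0.63, adjusted p = 0.766). PPL measured 96.6 and 55.9 FPKM against 108 and 67.8, a log2 difference of 0.22 (−0.94 to 1.38, adjusted p = 0.825). In these 3 genes library A was above library B in both groups, and each interval spans 0. The ratio of PPL to DSP was 0.482 and 0.282 in DMSO and 1.51 and 0.943 in resistant cells, and that of JUP to DSP 3.91 and 3.17 against 12.8 and 7.83. DSP thus stood lower relative to its plaque partner JUP in every resistant library than in every DMSO library of its line.

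**Figure D3:**
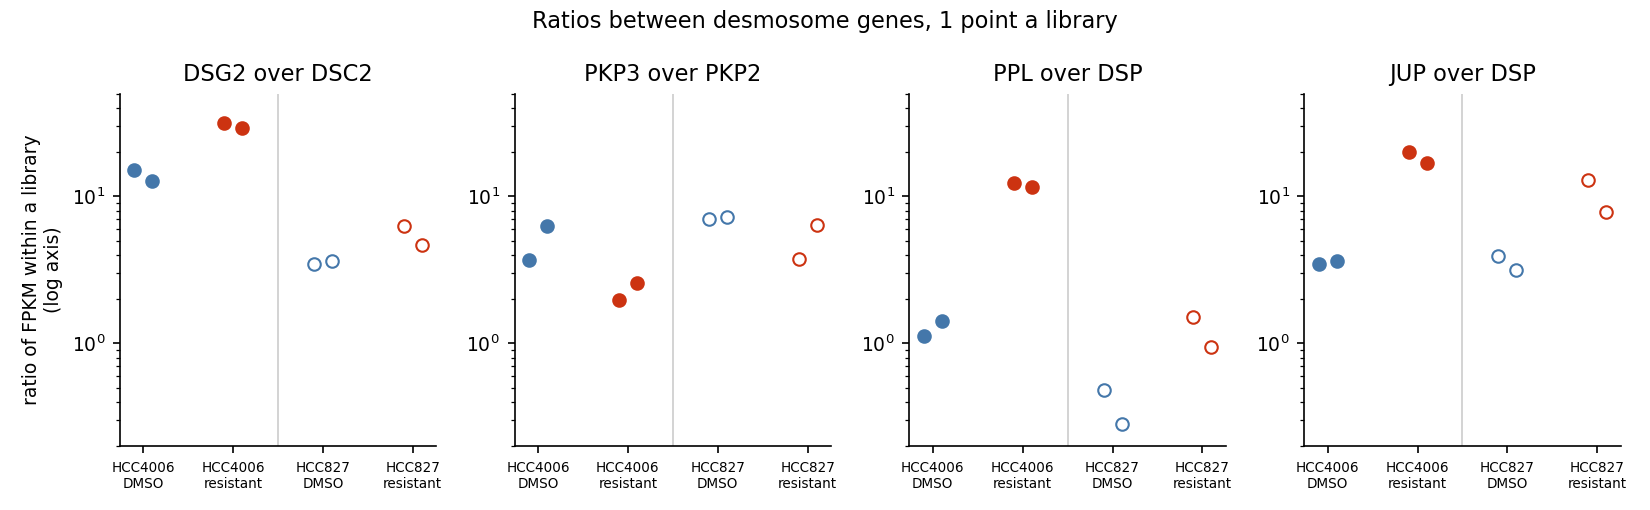
Ratios of FPKM between pairs of desmosome genes within a library, on a log axis, with 1 point per library. PPL over DSP and JUP over DSP are higher in resistant cells of both lines, with no overlap between the groups of a line, and DSG2 over DSC2 runs from 3.47 in HCC827 DMSO to 31.3 in resistant HCC4006.

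Whether a member changed differently in the 2 lines was asked with an interaction contrast across the 8 libraries, in which the HCC4006 change was subtracted from that in HCC827. The change differed for 5 of the 7 genes, each with the more negative value in HCC4006, where 6.27% of 20685 rows were called in that direction. The differences on the log2 scale were 4.08 for DSP (SE 0.30, adjusted p = 0.000259), 3.37 for JUP (SE 0.40, adjusted p = 0.00265) and 2.67 for PPL (SE 0.52, adjusted p = 0.022). For PKP3 the difference was 2.57 (SE 0.56, adjusted p = 0.0333) and for PKP2 2.01 (SE 0.36, adjusted p = 0.0166). The cadherins were not called, though DSC2 was with a pseudocount of 0.1 (0.0477) and with quantile normalization (0.0285). The differences were 1.08 for DSC2 (95% interval 0.38 to 1.78, adjusted p = 0.0655) and 0.60 for DSG2 (−0.25 to 1.45, adjusted p = 0.353). Over rows above 0 in every library, DSP (0.00657) and JUP (0.0173) were the 2 members called, where 0.97% of 14642 rows were called in that direction. The count fell from 5 to 2 without resistant HCC4006 library A or B or HCC827 DMSO library B, and to 3 without resistant HCC827 library A.

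The other desmosomal cadherins were low or listed at 0. DSC1, DSG3 and DSG4, cadherins of stratified epithelia, were listed at 0 in all 8 libraries, and DSG1 was above 0 in 1 library, at 1.06 FPKM in HCC827 DMSO. DSC3 measured 7.05 and 7.34 FPKM in HCC4006 DMSO and 11.7 and 10.0 in resistant cells (adjusted p = 0.33). PERP, a tetraspan protein of desmosomes, measured 392 and 533 FPKM in HCC4006 DMSO and 301 and 292 in resistant cells (adjusted p = 0.25). In HCC827 it measured 841 and 781 against 1211 and 1054 (adjusted p = 0.45). Of this list of 8 genes, 3 were tested in HCC4006 and 4 in HCC827, and none was called in either line. A listed 0 is not shown to be a lack of transcript. CTNND1, a widely expressed catenin gene, was also listed at 0 in all 8 libraries, in a row that also names C11orf31 and TMX2. DSC1 and DSG3 were alone on their loci. So was CAPN1, listed at 0 in both HCC827 DMSO libraries and at 1467 and 1504 FPKM in resistant HCC827.

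**Figure D4:**
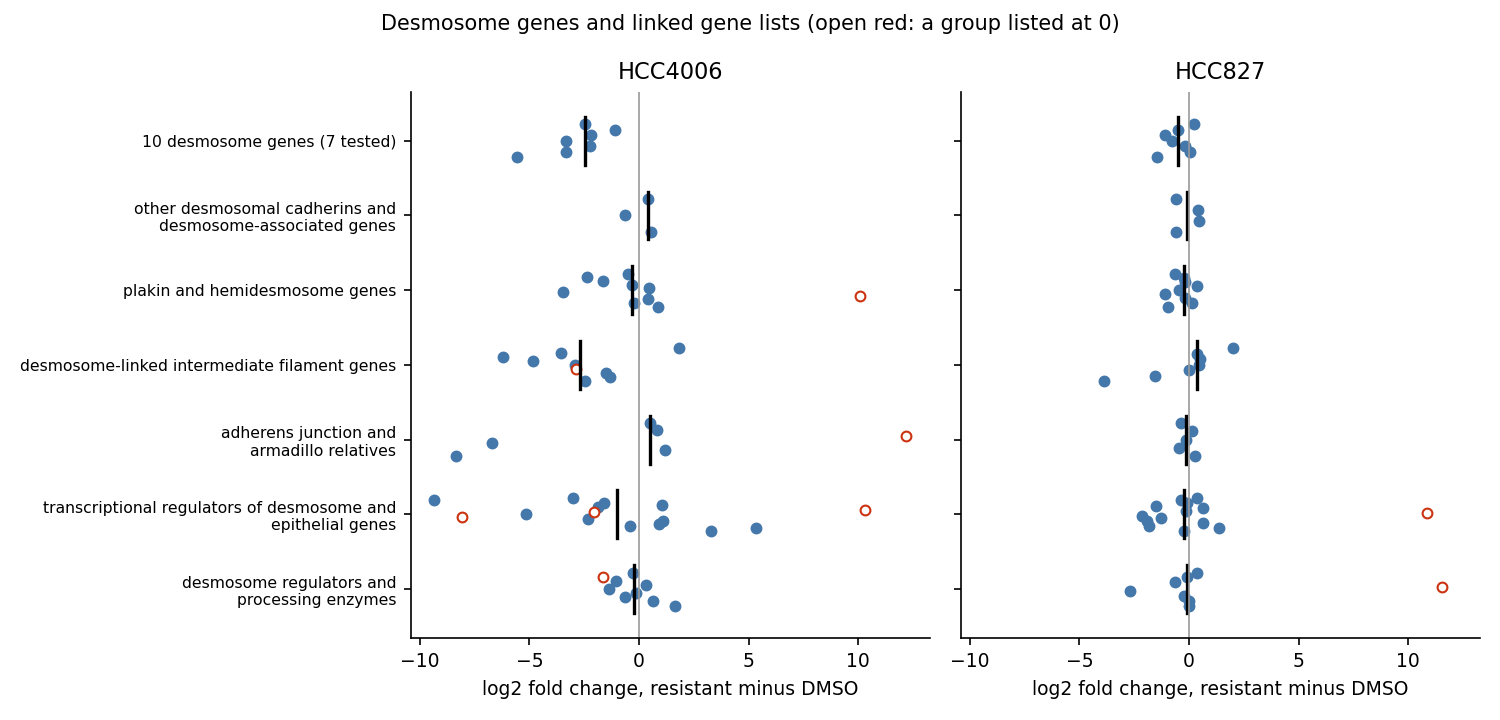
Log2 fold change, resistant minus DMSO, of each tested gene in the desmosome set and in 6 linked gene lists, in HCC4006 (left) and HCC827 (right), where open red points have a group listed at 0 and their position is no measure of size. A black line marks the median of the filled points. The desmosome genes are all below 0 in HCC4006 (median −2.45), and their median in HCC827 is −0.49.

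Some genes for the keratin filaments that desmosomes anchor fell in HCC4006. Of 9 tested genes for intermediate filaments, 5 were called lower, all keratins, and none higher. KRT19, a keratin of simple epithelia, fell from 4738 and 7263 FPKM to 486 and 515 (log2 difference −3.55, adjusted p = 0.00671). KRT15, a basal-cell keratin, fell too (log2 difference −2.93, SE 0.48, adjusted p = 0.0483), but was not called over rows above 0 alone (0.103). KRT8, with KRT19 the most abundant keratin measured, was not called (−1.52, adjusted p = 0.306), nor were KRT5 (0.178) and KRT6A (0.344). KRT17 and KRT16 fell as well, with 1 resistant library each listed at 0. VIM, the filament of mesenchymal cells, had a log2 difference of 1.82 and was not called (adjusted p = 0.0513). In HCC827, none of 7 tested filament genes was called.

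Hemidesmosomes, which anchor keratins to the basement membrane through ITGB4 and ITGA6, use plakins of the same family. Of 10 tested genes of this list in HCC4006, 3 were called lower and 1 higher. ITGB4 fell from 817 and 762 FPKM to 58.3 and 87.9 (log2 difference −3.45, adjusted p = 0.00699). The laminin genes LAMB3 and LAMA3 fell, with values of −2.39 and −1.62 (adjusted p = 0.0364 and 0.0398), and were not called over rows above 0 alone (0.074 and 0.0971). ITGA6, called higher, was listed at 0 in both DMSO libraries and at 519 and 571 FPKM in resistant cells. The widely expressed plakins DST (adjusted p = 0.13), PLEC (0.57) and MACF1 (0.36) had log2 differences of 0.89, −0.23 and 0.41, unlike DSP and PPL. In HCC827, none of 9 tested genes of this list was called.

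Of 6 tested adherens junction genes and armadillo relatives in HCC4006, 2 were called lower and 2 higher. The classical cadherins CDH1 and CDH3 fell, with log2 differences of −8.36 and −6.71, beyond that of DSP, and CDH2 rose (1.17, adjusted p = 0.0412, and 0.115 over rows above 0 alone). CTNNB1, which encodes beta-catenin, the close relative of plakoglobin, measured 581 and 942 FPKM in DMSO and 1349 and 1265 in resistant cells (log2 difference 0.82, adjusted p = 0.24), where JUP fell. CTNNA1, called higher, was listed at 0 in DMSO. In HCC827, none of 5 tested genes of this list was called.

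Regulators of epithelial genes moved in both directions in HCC4006, with 7 of 15 tested genes called lower and 3 higher. GRHL2, an activator of epithelial junction genes, measured 134 and 138 FPKM in DMSO and was listed at 0 in both resistant libraries. Here too a listed 0 is not shown to be a lack of transcript. ESRP1 fell as well, with 1 resistant library listed at 0, and the repressor gene ZEB2 rose (log2 difference 5.33, adjusted p = 0.0012). OVOL2, called higher in both lines, was listed at 0 in DMSO and shares its row with SNX5. GRHL1, which is known to activate desmosomal cadherin genes, was the 1 regulator called lower in both lines. It measured 8.88 and 10.3 FPKM in HCC4006 DMSO and 1.35 and 1.70 in resistant cells (log2 difference −2.32, adjusted p = 0.0317). In HCC827 it measured 60.8 and 49.2 FPKM in DMSO and 15.6 and 13.3 in resistant cells (log2 difference −1.89, adjusted p = 0.0453). Over rows above 0 alone GRHL1 was called in neither line (0.101 and 0.178). ZEB1 and ZEB2, which rose in HCC4006 (ZEB1 not over rows above 0 alone, 0.0686), had adjusted p of 0.83 and 0.50 in HCC827, and their changes differed between the lines (0.00821 and 0.0333).

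Enzymes and kinases that act on desmosomes gave no call in HCC4006 among 9 tested genes. PRKCA, a kinase that loosens desmosomal adhesion, measured 52.1 and 89.8 FPKM in DMSO and 209 and 216 in resistant cells (log2 difference 1.63, adjusted p = 0.08). ADAM17 and ADAM10, sheddases of desmosomal cadherins, had log2 differences of −0.63 and 0.66. In HCC827, 1 of 8 was called, CAPN1, which was listed at 0 in DMSO.

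The fall in HCC4006 went along with a fall of epithelial markers of the line. Of 5 tested genes (EPCAM, CDH1, NKX2-1, KRT8, KRT19), 4 were called lower, and their summed FPKM went from 9500 and 15800 to 1800 and 1630. In HCC827 this sum was 16000 and 15100 in DMSO and 10500 and 17500 in resistant cells. Of 9 fibroblast markers, 6 or 7 were listed at 0 in the HCC4006 DMSO libraries and 5 in resistant cells. Of these, 2 were called higher. Their sum was 122 and 71.7 FPKM in DMSO and 632 and 629 in resistant cells, of which 535 and 509.7 came from the row of PDGFRA, which also names FIP1L1 and was listed at 0 in all 4 DMSO libraries. The other call, PDGFRB, was not made over rows above 0 alone (0.0793). The sum in HCC827, where no desmosome gene was called, was 44.1 and 50.9 in DMSO and 681 and 688 in resistant cells, of which that row gave 667 and 669.7. The fibroblast genes COL3A1, THY1 and FAP, the immune genes PTPRC and CD3E and the endothelial gene CDH5 were listed at 0 in all 8 libraries. None of the tested immune and endothelial markers was called within a line. For the difference between the lines LYZ was called (2.82, adjusted p = 0.023), at 3.90 and 2.35 FPKM in HCC4006 DMSO and listed at 0 elsewhere. The part of any such marker in the fall of the desmosome genes was not tested.

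Most of the rows compared as chromosome neighbours of the members gave no call. For each of the 7 tested members the nearest row on each side with a mean of at least 10 FPKM and above 0 in all libraries was taken, a rule chosen after values were seen. Some of these rows lay far off, such as KCTD1 at 4436733 bases before DSC2 and the ALG10 row at 1125435 bases after PKP2. Of these 12 rows outside the set, SIGIRR was the 1 called in HCC4006. It starts 807 bases after PKP3 and fell from 447 and 251 FPKM to 55.9 and 59.3 (log2 difference −2.53, adjusted p = 0.0327, and 0.0729 over rows above 0 alone). The other 11 had log2 differences from −1.34 to 1.77. Over all tested rows of HCC4006, 2.98% were called lower and 6.37% higher. SNRNP48, 3481 bases after DSP, measured 32.8 and 41.7 FPKM in DMSO and 30.7 and 26.8 in resistant cells, where DSP fell. UBN1, 146 bases before PPL, measured 97.1 and 97.6 FPKM in DMSO and 132 and 131 in resistant cells. In HCC827, none of the 12 was called, where 1.67% of all tested rows were called lower and 5.13% higher.

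Likeness of the members' profiles is given as a description. After centring log2(FPKM + 0.5) within each line, the correlation of a member with the mean of the 7, which includes that member, lay between 0.921 for DSG2 and 0.992 for DSP and PKP2. This describes 8 libraries in 4 groups and is dominated by the step between DMSO and resistant HCC4006, from 1.32 and 1.56 to −1.48 and −1.39 in the mean. In HCC827 the mean went from 0.38 and 0.16 to −0.13 and −0.41. Of 12055 other rows, those most like the mean were MED19, C19orf21, CAP1P2, PRRG4, RP11-550F7.1 and MYO5B, with Pearson r from 0.988 to 0.997. MYO5B, a motor of apical membrane recycling, had log2 differences of −3.44 in HCC4006 and −0.99 in HCC827.

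A row spelled PK4P (chromosome 2, 159313475 to 159610287) lay outside the selection and was not taken as PKP4, although RefSeq places PKP4 on chromosome 2 as well. It measured 483 and 522 FPKM in HCC4006 DMSO and 424 and 549.7 in resistant cells, so its groups overlapped. In HCC827 it measured 466 and 684 against 325 and 317, with both resistant libraries below both DMSO libraries, as in 24.7% of tested rows. It shared its locus with 5 other rows.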

How the data were processed

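Polyadenylated RNA of HCC4006 and HCC827 was analysed, 8 libraries in 4 groups. Libraries were made with TruSeq RNA v2, which does not mark strand, per the labels' protocols. The authors deposited FPKM per gene in 2 tables. TopHat 1.4.1, Cufflinks 1.3.0 and Cuffdiff on hg19 are named in the submitters' processing notes. The annotation is not given in the sources used here. Columns of both tables carry the letters A and B, which were not tied to the labels' replicate numbers. There were 0 columns of other samples. Depth is unknown, so no counting interval can be given. Between 17406 and 19333 rows lay above 0 in a library, and the median row above 0 was at 53.6 to 59.0 FPKM, so the deposited values may have been scaled again. In HCC4006 DMSO library A the top 10 rows carried 15.6% of the FPKM total, and elsewhere 5.3% to 10.3%.

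The test was limma 3.58.1 under R 4.3.3 (lmFit, then eBayes with trend) on log2 of FPKM plus a pseudocount of 0.5. Rows needed a mean FPKM of 0.5 among the fitted libraries. Differences on this scale understate what low genes do. The lines were fitted one by one, and the difference between the lines in all 8 libraries, two-sided. Fragments of overlapping genes cannot be told apart. On the loci of PKP2, DSC2 and DSG2 lay 1 other row each. The other row was above 0 in at least 1 library for PKP2 and DSG2 and at 0 throughout for DSC2. The members and the 10 gene lists (91 entries, 87 with a row) were chosen with earlier results of these data known. Named were all members and, per list, up to 4 called genes with the largest change in HCC4006. Other list genes were named after their values were seen. Alternatives were other pseudocounts and filters, rows above 0 only, quantile normalization, no trend, a block by column letter, 1 fit of all libraries, and leaving out each library.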

Additional observations from a re-analysis of the deposited data

Results flagged for a closer look

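For 5 desmosome genes the change upon resistance differed between the lines by a test of the difference itself, the interaction contrast in limma over 8 libraries. The change in HCC827 minus that in HCC4006 was 4.08 for DSP, 3.37 for JUP, 2.67 for PPL, 2.57 for PKP3 and 2.01 for PKP2 on the log2 scale. Of 20685 tested rows, 6.27% were called in that direction. In HCC4006 all 5 were lower in 2 of 2 resistant libraries than in both DMSO libraries, as were 26.5% of all tested rows. In HCC827 this held for DSP and PKP3 and for 24.7% of tested rows, and JUP, PPL and PKP2 overlapped. The 5 genes were picked by the contrast on these same libraries, so this separation adds no support to it. Groups of 2 libraries are too small for a search for outlying libraries.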

How the results depend on the processing

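Every member kept its direction under all alternatives in HCC4006 and for the difference between the lines. In HCC827, JUP and PPL, neither called, changed sign without DMSO library B (−0.12 and −0.17) and without resistant library A (−0.32 and −0.12). Leaving out 1 library at a time, their log2 fold changes ran from −0.32 to 0.39 and from −0.17 to 0.61. Of 7 tested members, the 6 called in HCC4006 became 3 over rows above 0 in every library and between 1 and 7 when 1 library was left out. The 0 called in HCC827 became 1 (DSP) without a filter on low values, with a mean of at least 2 FPKM and with quantile normalization. Among all rows, 1370 of 20571, 1304 of 17507 and 1418 of 19324 were called in those fits, in that order. In the fit of all 8 libraries 2 members (DSP, DSC2) were called, and 1766 of 20685 rows. The 5 called for the difference between the lines became 2 over rows above 0 and between 2 and 5 when 1 library was left out, and 6, with DSC2, with a pseudocount of 0.1 or quantile normalization. Of all 20685 rows, 2558 were called for the difference with that pseudocount and 2520 with quantile normalization. The causes of these shifts were not tested. With the replicate block by column letter, 5 members were called in HCC4006, 0 in HCC827 and 3 for the difference. Of all rows, 1400 of 19881, 1485 of 19324 and 1687 of 20685 were called there. The letters pair no libraries by the labels, and the deviations of A from B in the groups of a line correlated at −0.0783 in HCC4006 and 0.206 in HCC827. No member had a second row to try. With 2 libraries a group and unknown depth, small changes could not be told from spread. Over all rows, calls fell from 1860 to 88 in HCC4006, from 1314 to 19 in HCC827 and from 2501 to 212 for the difference when rows had to be above 0 in every library. The HCC4006 count was 3565 without DMSO library B, the HCC827 count 0 without either DMSO library, and the difference gave 1691 and 1666 without resistant HCC4006 library A or B, 1687 with the block and 3857 without HCC4006 DMSO library B.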
